A study of Mus musculus with 6 samples.

Results

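The comparison described here set 1 RNA-seq library from the hippocampus of Prrc2a flox/flox; nestin-cre mice against 1 library from Prrc2a flox/flox mice of the same experiment, 2 of the 6 libraries of the series. Both genotypes were C57BL/6J at 4 weeks of age and both carried the floxed Prrc2a allele, so the groups differed by the Nestin-Cre transgene and the recombination it causes. Nestin-Cre is a recombinase expressed in neural progenitors and inherited by their neuronal and glial progeny, whereas microglia and blood vessels come from other lineages. The libraries are called cKO, as in the title of the sample, and f/f, since the title calls the control WT while its genotype label is flox/flox. No library with Nestin-Cre and an intact Prrc2a was analysed here, so the transgene and the loss of Prrc2a cannot be told apart, and the labels do not say whether tissue of several mice was pooled. With 1 library in each group no test could set the genotype apart from the library, and every difference below is a description of these libraries. The other 4 libraries of the series (f/f and f/f with Olig2-Cre, WT and Fto Tg) serve only to show where a level lies outside the range of the series. They were not like the pair in every respect. The mitochondrial tRNA gene mt-Ts1 had 0 counts in both libraries of the pair and 42 to 89 counts in the other 4. The source of this difference was not tested.

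Prrc2a is a large protein that binds N6-methyladenosine (m6A), the most common internal modification of mRNA, and reader proteins of this kind influence how long a transcript lasts and how it is spliced and translated. Stress responses are programmes of genes that cells switch on together. Hsf1 drives chaperones when proteins misfold in the cytosol, the unfolded protein response drives chaperones of the endoplasmic reticulum, Atf4 drives amino acid genes in the integrated stress response, Nrf2 drives antioxidant enzymes, and p53 drives genes of arrest and death. Because these programmes have well known members, each can be read as a group in bulk tissue. In bulk RNA, fewer cells of a type and less RNA per cell cannot be told apart.

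The f/f library held 35482589 counts and the cKO library 34760023. In the cKO library 10 and 1000 counts equalled 0.288 and 28.8 CPM (counts scaled to a library total of 1e6), with Wilson 95% intervals of 0.156 to 0.530 and 27.0 to 30.6 CPM, which cover counting error only. A gene was measured when it had at least 50 counts over the pair, which left 14974 of 37315 gene identifiers, and 14812 of them had a known GC content. Genes of the mitochondrial genome took 26.2% of the counts of the cKO library and 7.97% of those of the f/f library, and the other 4 libraries lay between 8.51% and 8.86%. For that reason the log2 ratio of cKO to f/f is given on 4 scales. They are library totals, totals without mitochondrial genes, TMM (a scaling that assumes that most genes do not differ) and GC-relative, the ratio on library totals minus the median ratio of the 500 measured genes nearest in GC content. The median over all measured genes was -0.71 on library totals, -0.40 without mitochondrial genes, -0.07 with TMM and 0.00 on the GC-relative scale. The first 3 scales differ by a constant, so they move the line between higher and lower and leave the order of genes as it is.

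The scale decided how many genes passed 2-fold. On library totals 787 genes (5.26%) were at least 2-fold higher in the cKO library and 5836 (39%) at least 2-fold lower. Without mitochondrial genes the shares were 8.78% higher and 28.2% lower. TMM gave 14.1% higher and 19.4% lower, and the GC-relative scale gave 14.9% and 13.6%. On all 4 scales at once, 764 genes (5.16%) were 2-fold higher and 1678 (11.3%) were 2-fold lower. For comparison, the second f/f library (control of the Olig2-Cre pair) differed from the first by 2-fold, in either direction, at 2.16% of genes on library totals. In CPM, the cKO library lay above all 5 other libraries at 17.3% of genes and below all of them at 67.1%.

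Prrc2a (chr17:35149076-35164897, minus strand, GRCm38) was measured at 434 CPM in the f/f library (95% interval 427 to 441) and at 184 CPM in the cKO library (179 to 188), and the other 4 libraries held 334 to 389 CPM. The level was thus lowest in the cKO library. The log2 ratio was -1.24 on library totals, -0.92 without mitochondrial genes and -0.60 with TMM, and it turned to 0.52 on the GC-relative scale, since genes as rich in GC as Prrc2a (60.6%) had a median of -1.76. The counts cover the whole gene, so transcripts that lack only the deleted exons are still counted, and the deletion could not be read from this level alone. The paralog Prrc2b stood at 559 CPM in the f/f library and 359 in the cKO library, with log2 ratios of -0.64 on library totals and 0.00 with TMM. Prrc2c, the other paralog, went from 178 to 457 CPM, above the 76.6 to 139 CPM of the other 4 libraries. Its log2 ratio was 1.36 on library totals and 1.85 on the GC-relative scale, so Prrc2c was the family member that was more than 2-fold higher on all 4 scales.

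The ratio fell with the GC content of the transcript. In the lowest GC decile (31.0% to 41.3%) the median log2 ratio on library totals was -0.15, and in the highest (57.9% to 73.7%) it was -1.68, a difference of -1.54. The same difference was -0.31 between both f/f libraries of the series (second over first), and -0.48 between WT and the first f/f library. The mean GC content of the counted genes, weighted by their counts, was 45.7% in the cKO library and 48.5% to 49.2% in the other 5. With 1 library in each group, library preparation and RNA quality cannot be told apart from genotype in this difference or in those of mitochondrial and short genes below. Cd38, an enzyme that consumes NAD, and Ccne2, a cyclin, lay nearest to the median of the lowest decile. Cd38 changed from 10.1 to 9.09 CPM and Ccne2 from 7.38 to 6.67. Tepsin, an adaptor of transport vesicles, and Igfbp6, a binding protein of insulin-like growth factors, lay nearest to the median of the highest decile. Tepsin changed from 16.6 to 5.15 CPM and Igfbp6 from 9.36 to 2.91. In the highest decile 767 of 1482 genes were 2-fold lower with TMM and 44 were higher, and in the lowest decile 51 were lower and 426 were higher.

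The ratio rose with exon length. Genes in the shortest decile had a median log2 ratio of -1.21 on library totals and those in the longest decile -0.21. On the GC-relative scale the same deciles had medians of -0.32 and 0.30, so short genes remained lower and long genes higher among genes of the same GC content. In the control pair of f/f libraries the medians of the shortest and longest deciles were -0.17 and 0.05.

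**Figure D1:**
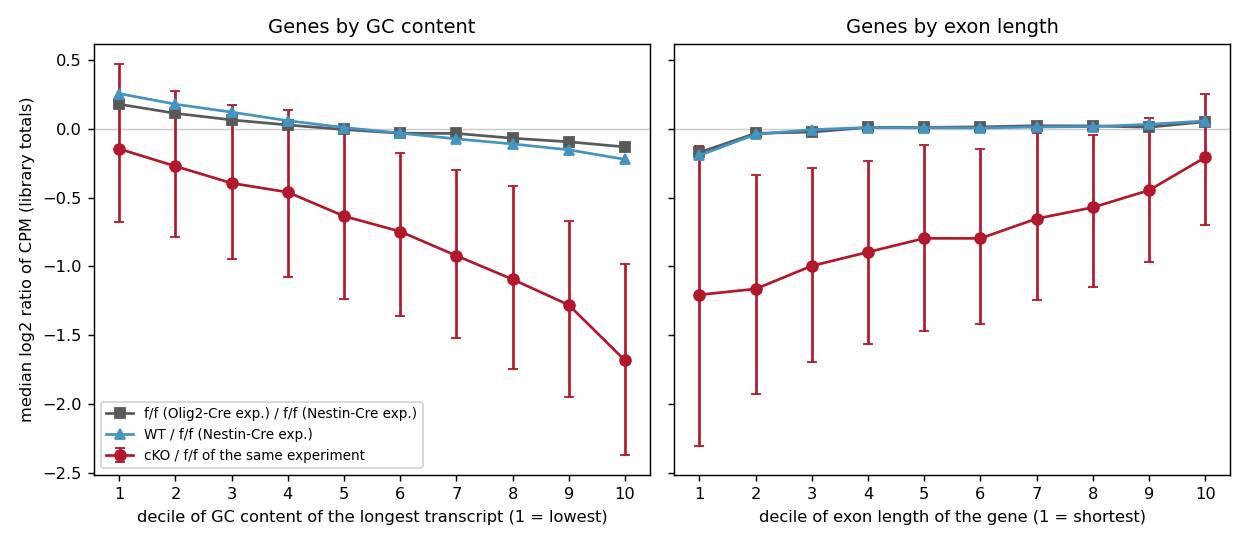
Median log2 ratio of CPM on library totals (vertical axis) by decile of transcript GC content (left) and of exon length (right). Red circles show cKO against f/f with bars from the 25th to the 75th percentile of genes, grey squares and blue triangles show medians of control libraries against the same f/f library, and the red line falls from -0.15 to -1.68 with GC content.

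The 12 protein-coding genes that were higher by the most on every scale mixed very abundant and nearly silent genes. Lcn2 (lipocalin 2, an iron-siderophore carrier released in inflammation) had 13 counts (0.366 CPM) in the f/f library and 339 (9.75 CPM) in the cKO library, against 0.482 to 3.92 CPM in the other 4 libraries. Klk14, a kallikrein protease, went from 14.0 to 314 CPM, and the other 4 libraries held 0.792 to 1.29 CPM. The f/f library of this experiment was therefore itself above the rest for Klk14. The same held for Pigr, the receptor that carries polymeric immunoglobulin across epithelia, with 4.34 CPM in f/f, 47.2 in cKO and at most 0.999 elsewhere. It also held for Nkx2-1, a transcription factor of the ventral forebrain and hypothalamus, with 2.85 CPM in f/f, 25.1 in cKO and at most 1.55 elsewhere. For these 3 genes both libraries of the pair thus lay above the rest of the series.

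Mid1, a ubiquitin ligase bound to microtubules, went from 8.99 to 90.3 CPM with 10.2 to 15.8 CPM in the other 4 libraries. Hmgn5, which binds nucleosomes, went from 16.6 to 163 CPM with 17.4 to 21.0 elsewhere. For both genes the f/f library lay just below the other 4, and the cKO library stood alone. Rhox8, a homeobox gene of the X chromosome, had 0.874 and 15.1 CPM, and Muc15, a membrane mucin, had 0.789 and 6.76 CPM. The remaining members were mt-Nd2, described below, and the predicted genes Gm21833, Gm5415 and Gm21750, which had 3.69, 9.53 and 8.29 CPM in f/f and 33.0, 79.8 and 67.5 CPM in cKO. Only uniquely mapped reads were counted, so the levels of predicted genes with near-identical copies are uncertain.

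The 12 protein-coding genes that were lower by the most were mainly short genes of ribosomes and mitochondria. Lars2, the leucyl-tRNA synthetase of mitochondria, went from 4306 to 62.4 CPM, a log2 ratio of -6.11 on library totals and -5.30 on the GC-relative scale. The other 4 libraries held 1746 to 2035 CPM, so the f/f library of this experiment was above them. Of the ribosomal proteins, Rps29 went from 583 to 10.4 CPM, Rps21 from 444 to 16.1, Rps28 from 227 to 10.3 and Rps27rt, a retrotransposed copy of Rps27, from 253 to 9.15. For all 4 the cKO level lay below the other 5 libraries, and the f/f library held the highest level of the 6.

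Atp5e, the epsilon subunit of ATP synthase, went from 140 to 4.09 CPM, and Tomm7, a small subunit of the import pore of the outer mitochondrial membrane, from 102 to 4.23. Cebpb, a transcription factor of inflammation and the stress response, had 240 counts (6.76 CPM) in f/f and 2 counts (0.0575 CPM) in cKO, a 118-fold lower level with an exact 95% interval of 32.2 to 976. The other 4 libraries held 6.94 to 11.4 CPM of Cebpb. S100a6, a small calcium-binding protein, went from 12.2 to 0.316 CPM, and Pcp4, a small calmodulin regulator, from 11.6 to 0.489. 1110065P20Rik and 1500015O10Rik completed the group, at 12.5 and 33.7 CPM in f/f and 0.259 and 1.24 CPM in cKO.

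**Figure D2:**
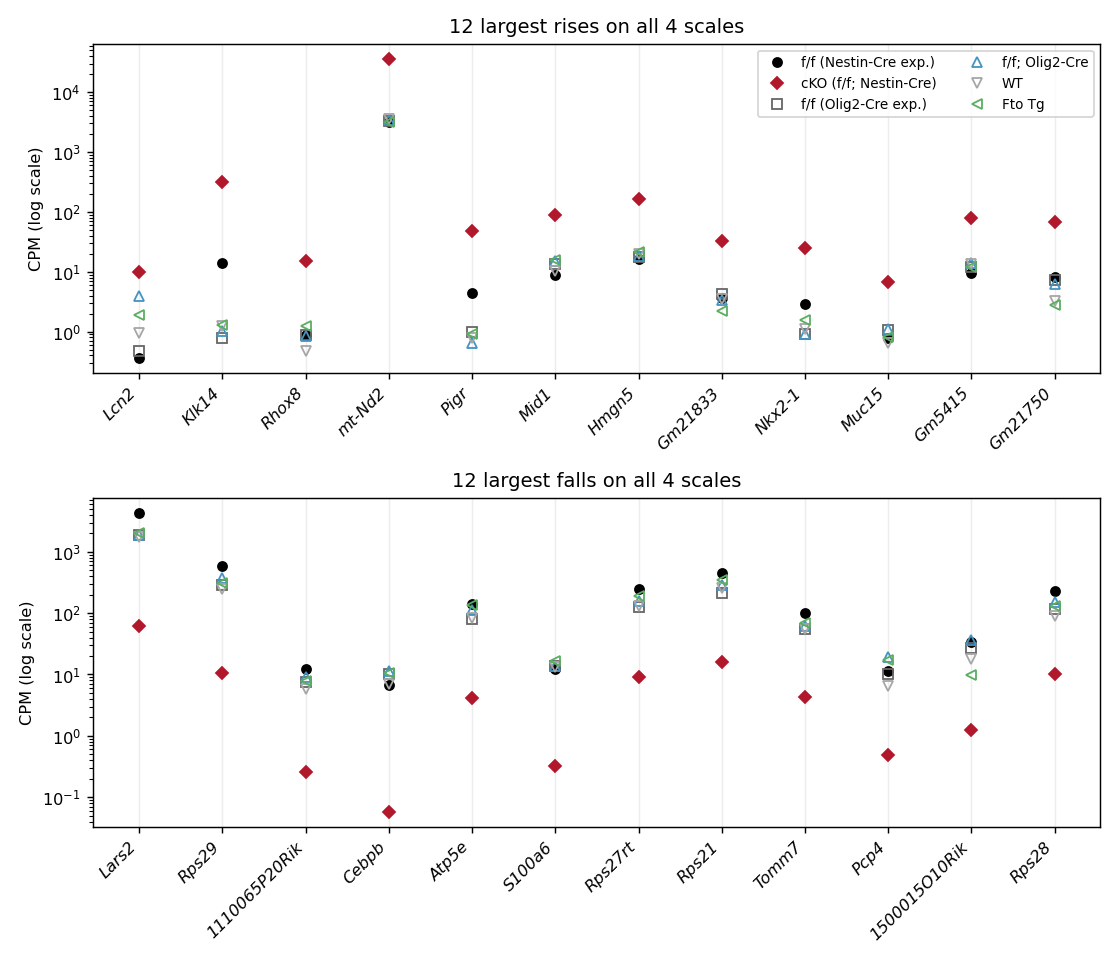
CPM on a log axis for the 12 genes higher by the most (top) and lower by the most (bottom) on all 4 scales, with a symbol for each of the 6 libraries. Filled red diamonds (cKO) lie above every other library in the top panel and below every other library in the bottom panel, and filled black circles (f/f of the same pair) lie above the open symbols for Klk14, Pigr, Nkx2-1, Lars2 and the 4 ribosomal genes, among others.

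Mitochondrial DNA encodes 13 proteins of the respiratory chain and both rRNAs of the mitochondrial ribosome, and most of these are cut from a few long precursor transcripts. Of the 13 protein genes, 12 passed the count minimum, with a summed level of 65404 CPM in f/f and 249470 CPM in cKO over all 13, against 71251 to 76320 CPM in the other 4 libraries. The increase was uneven along the genome. On all 4 scales 10 of the 12 were at least 2-fold higher, with a list median of 2.35 on library totals beside -0.71 over all genes. The largest log2 ratio on library totals was that of mt-Nd2 (a complex I subunit) at 3.52, from 3122 to 35818 CPM, while the other 4 libraries held 3145 to 3560 CPM. Next came mt-Nd6 at 2.97, mt-Nd5 at 2.91, mt-Nd1 at 2.55 and mt-Cytb at 2.45.

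The complex IV genes differed among themselves. mt-Co1 went from 12804 to 45492 CPM and mt-Co2 from 7122 to 16819, while mt-Co3 went from 11008 to 5068. mt-Nd3, the next protein gene after mt-Co3 in the genome, went from 3034 to 337 CPM, a log2 ratio of -3.17 on library totals and -2.53 with TMM. Both neighbours were thus lower in the cKO library while mt-Atp6 before them (1.01 on library totals) and mt-Nd4 after them (2.34) were higher, and mt-Nd4l, between mt-Nd3 and mt-Nd4, was below the count minimum. For mt-Co3 the TMM value of -0.48 no longer passed 2-fold. The rRNA mt-Rnr1 went from 5052 to 7688 CPM and mt-Rnr2 from 9153 to 4749, log2 ratios of 0.61 and -0.95 on library totals. mt-Nd6 lies on the opposite strand to the other protein genes, and the counting used no strand, so reads from the opposite strand cannot be told apart from its own.

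**Figure D3:**
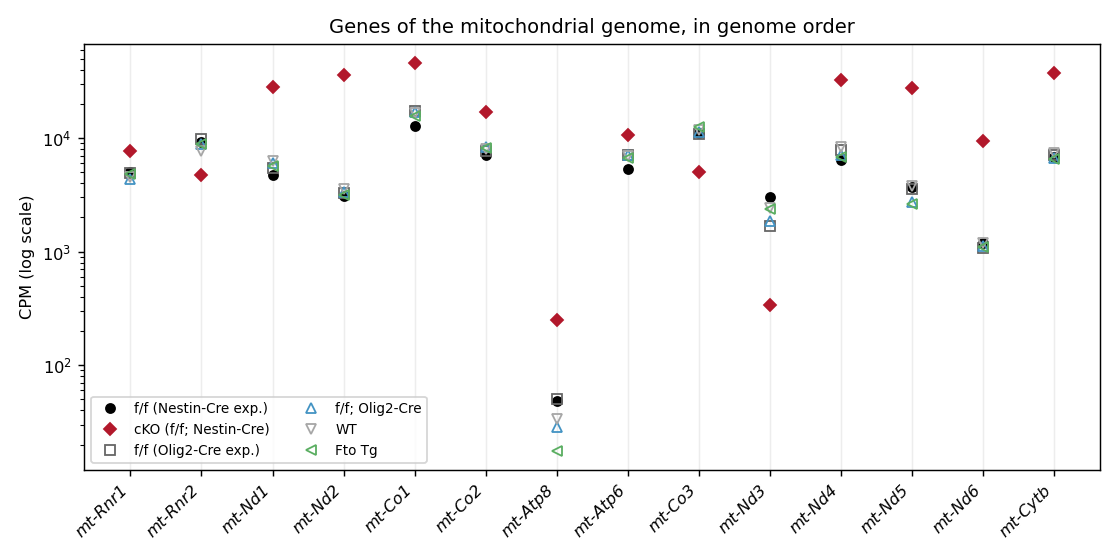
CPM on a log axis for the rRNA and protein genes of the mitochondrial genome that passed the count minimum, in the order of the genome, with a symbol for each of the 6 libraries. The cKO library (red diamonds) lies above the other 5 for 11 of the genes and below them for mt-Rnr2, mt-Co3 and mt-Nd3.

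The nuclear genes of the respiratory chain went the other way. Of 36 complex I subunits 30 were 2-fold lower on library totals, 20 with TMM and 16 on the GC-relative scale, and their medians were -1.73, -1.08 and -0.83. Ndufa4, the most abundant of them, went from 221 to 32.2 CPM and Ndufb9 from 199 to 47.8. The extremes were Ndufb11 (86.6 to 4.80 CPM) and Ndufb4 (53.1 to 60.2 CPM). Complex III had 7 of 9 subunits 2-fold lower on library totals and 5 on the GC-relative scale, with a median of -1.25 on the latter. There Uqcr11 went from 180 to 12.8 CPM, Uqcrc1 from 193 to 52.5 and Uqcrh from 154 to 81.6, whereas Uqcrb went from 49.7 to 86.7. Subunits of the same complex therefore lay on both sides of the f/f level.

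Complex IV had 13 of 16 nuclear subunits 2-fold lower on library totals and 9 on the GC-relative scale, where the median was -1.31. Cox4i1, the most abundant, went from 474 to 128 CPM and Cox6c from 350 to 191. The lowest ratio was that of Cox8b, with 59 counts in f/f and 1 in cKO (57.8-fold lower, exact 95% interval 9.98 to 2321), and the highest that of Cox4i2, with 1.01 and 1.93 CPM. Of 17 ATP synthase subunits 14 were 2-fold lower on library totals and 11 on the GC-relative scale, and none was 2-fold higher on any of the 4 scales. Atp5b and Atp5a1, the catalytic subunits, went from 933 to 373 and from 713 to 250 CPM, and Atp5h from 204 to 257. Relative to genes of the same GC content and exon length the medians of complexes I, III and IV were -0.54, -1.23 and -0.89. In the pair of f/f control libraries the medians of these 4 lists, minus that of all genes, were -0.28, -0.26, -0.38 and -0.31.

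Cytosolic ribosomal proteins, the protein part of the translating ribosome, were low as a class but not in every member. Their summed level was 14960 CPM in f/f and 5946 CPM in cKO, with 12981 to 17878 CPM in the other 4 libraries. Of 80 measured genes 65 were 2-fold lower on library totals, 49 with TMM and 40 on the GC-relative scale, with medians of -1.99, -1.35 and -1.02. Rps29 was at the low end, as given above. At the other end Rpl21 went from 305 to 834 CPM and Rpl19 from 191 to 473, and both were 2-fold higher on all 4 scales. Rpl4, which with Rpl21 had the highest mean CPM over the pair, went from 405 to 596 CPM. The 40 genes lower on all 4 scales summed to 8406 CPM in f/f and 1141 in cKO, and the other 40 to 6554 and 4805 CPM. Their median GC contents were 51.0% and 51.5% and their median exon lengths 2012.5 and 1660.5 bases, and both sets were short beside the median of 4418 bases over all measured genes. Many ribosomal protein genes have processed copies, and reads that match a copy were not counted.

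Ribosomal proteins of mitochondria, which translate the mitochondrial mRNAs, are encoded in the nucleus. Of 76 genes 50 were 2-fold lower on library totals, 27 with TMM and 20 on the GC-relative scale. Mrpl20 went from 49.0 to 3.74 CPM, while Mrpl49 and Mrps5 were 2-fold higher on all 4 scales, from 30.2 to 86.6 and from 45.4 to 91.5 CPM. Vacuolar ATPase subunits, which acidify lysosomes and synaptic vesicles, had a GC-relative median of -0.86 with 8 of 17 genes 2-fold lower. Atp6v0c, the proteolipid of the proton channel, went from 129 to 6.85 CPM, but Atp6v1g2, a neuronal subunit, went from 351 to 431. Proteasome subunits had a GC-relative median of -0.44, with Psmb4 at 121 and 10.2 CPM and Psma4 at 67.3 and 175 CPM. Of the 6 measured host genes of small nucleolar RNAs, whose introns carry those RNAs, 4 were 2-fold lower on all 4 scales. Gas5 went from 3803 to 1111 counts, Snhg12 from 743 to 190, Snhg20 from 450 to 27 and Snhg15 from 136 to 3 counts (44.4-fold lower, exact 95% interval 14.9 to 218). Snhg17 (10.5 and 4.57 CPM) and Snhg11 (1984 and 1564 CPM) were the others.

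Of the 92 gene lists and families 87 had at least 5 measured genes, and the median of 18 lay at least 0.5 above that of all genes on library totals and that of 18 at least 0.5 below. Over the same lists this departure ran from -0.38 to 0.41 between both f/f libraries and from -0.60 to 0.51 between WT and the first f/f library. Chromatin remodelers move and mark nucleosomes. Of 41 chromatin remodelers and histone methyltransferases 24 were 2-fold higher on the GC-relative scale, 18 with TMM and 5 on library totals, and none was 2-fold lower on any of the 4 scales. Their median was 0.22 on library totals and 1.05 on the GC-relative scale, and in the pair of f/f controls it was 0.01 above that of all genes. Arid4a, which binds the retinoblastoma protein, went from 51.2 to 248 CPM, Kmt2e from 133 to 421 and Atrx, a remodeler of heterochromatin, from 195 to 496. Chd3, the most abundant, went from 865 to 742 CPM and Smarcc2 from 284 to 438. The lowest ratio on library totals was that of Setd1a with 1023 and 695 counts, with a GC-relative log2 ratio of 0.80, so its direction depended on the scale.

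Among 25 transcription coactivators and Mediator subunits 11 were 2-fold higher on the GC-relative scale and 1 was lower. Crebbp, a histone acetyltransferase, went from 70.7 to 168 CPM and Ncor1 from 270 to 443, whereas the Mediator subunits Med25 and Med6 went from 66.7 to 14.6 and from 12.5 to 3.42. RNA polymerase II was split in the same manner. Polr2a, the largest subunit, went from 118 to 501 CPM and Polr2b from 57.6 to 79.4, while 7 of the 12 subunits were 2-fold lower on library totals. The lowest were Polr2l (26.6 to 2.53 CPM), Polr2d (16.7 to 2.42) and Polr2k (19.9 to 3.22). The median of this list, minus that of all genes, was -0.94 on library totals, and it was -0.56 on the GC-relative scale and -0.24 once exon length was matched as well.

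SR proteins and hnRNPs, which bind pre-mRNA and steer splicing, had a median of 0.31 on library totals and 0.59 on the GC-relative scale. With TMM 18 of 37 were 2-fold higher and 4 were lower. Hnrnpr went from 102 to 411 CPM, Srsf11 from 181 to 640 and Hnrnpa2b1, itself an m6A-binding protein, from 22548 to 45548 counts. In the other direction Hnrnpa0 went from 194 to 22.5 CPM, Srsf9 from 56.4 to 11.3 and Srsf2 from 68.2 to 16.7. The Sm proteins of the core spliceosome were low, with Snrpd2 at 51.3 and 5.52 CPM, Snrpb at 50.8 and 5.52, and Snrpe at 29.1 and 3.31, while Snrpd3 stood at 42.9 and 56.9 CPM.

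Of the 23 measured m6A writers, erasers and readers 6 were 2-fold higher on all 4 scales and none was 2-fold lower with TMM. Zc3h13, which anchors the writer complex in the nucleus, went from 124 to 500 CPM, Cbll1, another cofactor of the writer complex, from 23.6 to 70.2, and the nuclear reader Ythdc1 from 96.6 to 262. The cytoplasmic reader Ythdf1 went from 59.2 to 23.4 CPM, a log2 ratio of -1.33 on library totals and -0.69 with TMM. Translation factors covered a similar width. Eif5b, which joins the ribosomal subunits, went from 127 to 843 CPM and Eif3a from 235 to 839, whereas Eif5a went from 239 to 25.5. The elongation factors Eef1a1 and Eef1a2 stood at 1294 and 786 CPM in f/f and 1454 and 623 in cKO. Zinc finger genes of the Zfp family, many of them repressors of transposons, had a median of -0.14 on library totals and 0.33 on the GC-relative scale, with 69 of 357 genes 2-fold higher and 17 lower on the latter.

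Membrane transporters and small membrane proteins were below the median. Of 252 Slc transporters 61 were 2-fold lower on the GC-relative scale and 14 were higher, and of 192 Tmem genes 44 were lower and 9 were higher. The background on that scale was 13.6% lower and 14.9% higher.

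**Figure D4:**
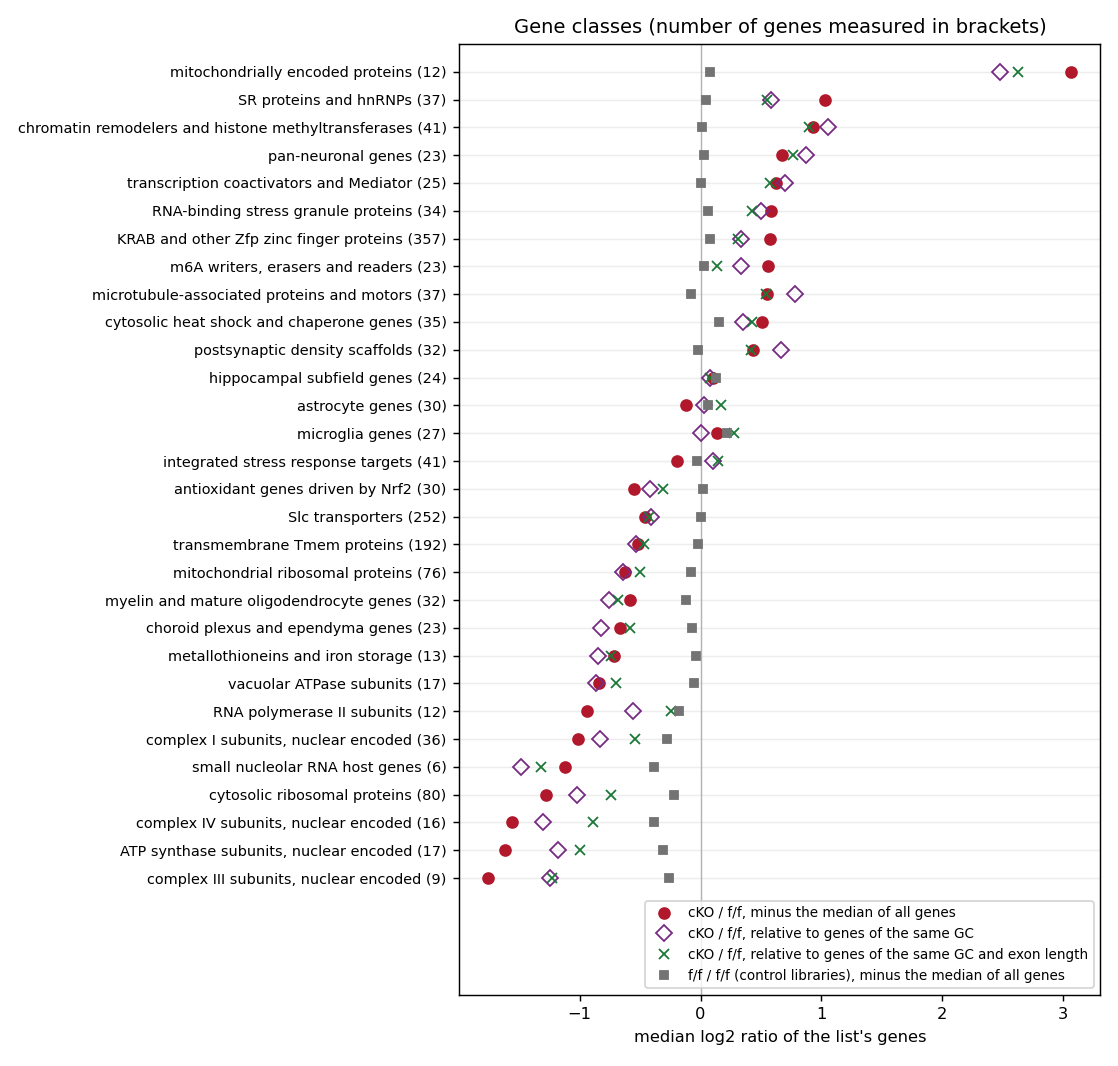
Median log2 ratio (horizontal axis) of 30 gene classes, with the number of measured genes in brackets. Red circles give cKO against f/f on library totals minus the median of all genes, open diamonds the GC-relative median, green crosses the median relative to genes of the same GC content and exon length, and grey squares the pair of f/f control libraries. The classes range from 2.48 (mitochondrially encoded proteins) to -1.49 (small nucleolar RNA host genes) on the GC-relative scale, and the grey squares lie between -0.38 and 0.22.

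The tissue label was checked with genes of the hippocampal subfields. All 24 were measured, and their summed level was 2758 CPM in f/f and 3106 CPM in cKO, with 2708 to 3182 CPM in the other 4 libraries. Prox1, which marks granule cells of the dentate gyrus, stood at 107 and 117 CPM. Neurod6, a transcription factor of pyramidal neurons, went from 182 to 869 CPM while the other 4 libraries held 163 to 190 CPM, and Zbtb20 went from 369 to 749. Wfs1 and Fibcd1, genes of CA1, went from 196 to 64.0 and from 114 to 18.4 CPM, and the lowest ratio was that of Bok at 37.3 and 2.68 CPM. Subfield genes thus spread in both directions around a GC-relative median of 0.08. Genes of neighbouring regions were low in both libraries, with a summed level of 282 and 170 CPM. There Ppp1r1b (striatum) went from 36.0 to 2.96 CPM and Slc17a6 (thalamus) stood at 32.6 and 33.8.

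The list of pan-neuronal genes, which also holds genes of excitatory neurons such as Camk2a, had a median above that of all genes. Of its 23 genes 9 were 2-fold higher on the GC-relative scale and none was lower, with a median of 0.87. The neurofilament genes Nefm and Nefh went from 269 to 1088 and from 66.3 to 171 CPM, Syn1 (synapsin 1) from 463 to 1048 and Snap25, a fusion protein of synaptic vesicles, from 1595 to 2936. Camk2a, a kinase of the synapse and the most abundant gene of the list, stood at 3678 and 3577 CPM. Slc17a7, the vesicular glutamate transporter, went from 1407 to 373 CPM, a log2 ratio of -1.92 on library totals and -0.56 on the GC-relative scale. Postsynaptic scaffolds had 10 of 32 genes and microtubule-associated proteins and motors 10 of 37 genes 2-fold higher on the GC-relative scale, and neither had a gene 2-fold lower on it. Map1b went from 1407 to 3636 CPM, Kif3a from 157 to 571 and Ank2 from 416 to 926. With exon length matched as well, the medians of these lists were 0.77, 0.42 and 0.54, in the order pan-neuronal, postsynaptic and microtubule-associated.

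Tubulins and actins, the filaments themselves, were read together with small proteins that bind them, such as cofilin, profilins and stathmins. Of 28 genes of tubulins, actins and their small regulators 17 were 2-fold lower on library totals and 1 was higher, beside 39% and 5.26% of all genes. On the GC-relative scale 4 were lower and 3 were higher, beside 13.6% and 14.9% of all genes. The medians on these scales were -1.37 and -0.36. Tuba1b, an alpha-tubulin, went from 269 to 39.2 CPM, Tubb3, the beta-tubulin of neurons, from 249 to 76.4 (0.04 on the log2 scale once GC content and exon length were matched) and Actb (beta-actin) from 1151 to 446. Tmsb4x and Tmsb10, thymosins that bind free actin, went in opposite directions, from 955 to 126 and from 151 to 343 CPM.

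Glutamate and GABA-A receptor subunits form the ion channels of fast synapses. Of 17 ionotropic glutamate receptor genes 4 were 2-fold higher on the GC-relative scale, beside 14.9% of all genes. Gria1 went from 861 to 1244 CPM and Gria2 from 816 to 744. Of 12 GABA-A subunits Gabra2 was 2-fold higher on all 4 scales, from 142 to 388 CPM. Among interneuron genes Slc32a1, the vesicular GABA transporter, went from 59.4 to 8.37 CPM and Pvalb from 33.1 to 6.90, while Gad2 went from 138 to 232, Gad1 from 247 to 120 and Lhx6 from 16.3 to 37.2. In CPM, markers of the same neurons therefore pointed in different directions. These levels are not matched for GC content or exon length.

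Myelin genes were below the median of all genes. Of 32 genes of mature oligodendrocytes 19 were 2-fold lower on library totals, 15 with TMM and 10 on the GC-relative scale, with a GC-relative median of -0.75 and a summed level of 12935 CPM in f/f, 8152 in cKO and 9733 to 14320 elsewhere. Mbp (myelin basic protein) went from 124439 to 37554 counts, Mag from 264 to 29.8 CPM, and Qdpr from 147 to 11.8. Mobp, another myelin protein, stood at 1414 and 1539 CPM. The 13 transcription factors of this lineage had a GC-relative median of 0.47, but most of them were lower on library totals. Olig1 went from 138 to 16.5 CPM, and Zfp488 and St18 from 100 to 164 and from 25.1 to 40.0. Olig2, which the study names as a target of Prrc2a, went from 38.9 to 15.5 CPM. It stood at 36.9 CPM in the second f/f library, 43.2 in WT, 31.5 in Fto Tg and 23.7 in f/f with Olig2-Cre. According to the study, Olig2-Cre by itself leaves mice haploinsufficient for Olig2. The log2 ratio of Olig2 from f/f to cKO was -1.33 on library totals, -0.69 with TMM and 0.16 on the GC-relative scale. Its direction thus depended on the scale.

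Choroid plexus and ependymal genes, which enter a hippocampal sample with the ventricle wall, had a summed level of 4063 CPM in f/f and 663 in cKO. Over the other 4 libraries this sum ranged from 1134 to 4848 CPM. Ttr (transthyretin) went from 96169 to 7342 counts and Enpp2 from 37276 to 11595. All 23 genes of the list were measured and 8 were 2-fold lower on all 4 scales. The part of dissection in this difference was not tested. Astrocyte and microglia lists had GC-relative medians of 0.03 and 0.01. Their summed levels were 14624 and 845 CPM in f/f and 11908 and 581 CPM in cKO, and the other 4 libraries held 14469 to 15915 and 894 to 1083 CPM. Sparc alone held 305 CPM of the microglia sum in f/f and 195 CPM of that in cKO. Within the microglia list C1qc, a complement subunit, went from 33.1 to 4.23 CPM and Cd68, a lysosomal protein, from 5.86 to 13.2.

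Genes of the stress responses were read against genes of the same GC content. The 17 lists held 460 distinct measured genes. Of these 66 (14.3%) were at least 2-fold above their GC peers and 68 (14.8%) at least 2-fold below, beside 14.9% and 13.6% of all genes. The SD of the GC-relative ratio was 1.04 over the stress genes and 1.03 over all genes. Stress genes as a whole thus departed from their GC peers about as often as any gene, and the lists below differ in which members departed. Of the 66 genes above their peers 19 were also 2-fold higher on library totals. In CPM the cKO library was above all 5 other libraries for 50 of the 66 and below them for all 68 of the others, beside 17.3% and 67.1% of all genes, and nothing is read from these counts since the same f/f library chose the genes. In the lists that follow, a gene is counted as above or below its peers only where it was at least 2-fold from them. Each count is to be read beside the 14.9% of all genes above and 13.6% below. These peers were not matched for exon length. With exon length matched as well 124 stress genes were 2-fold from their peers, against 134 by GC content alone.

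**Figure D5:**
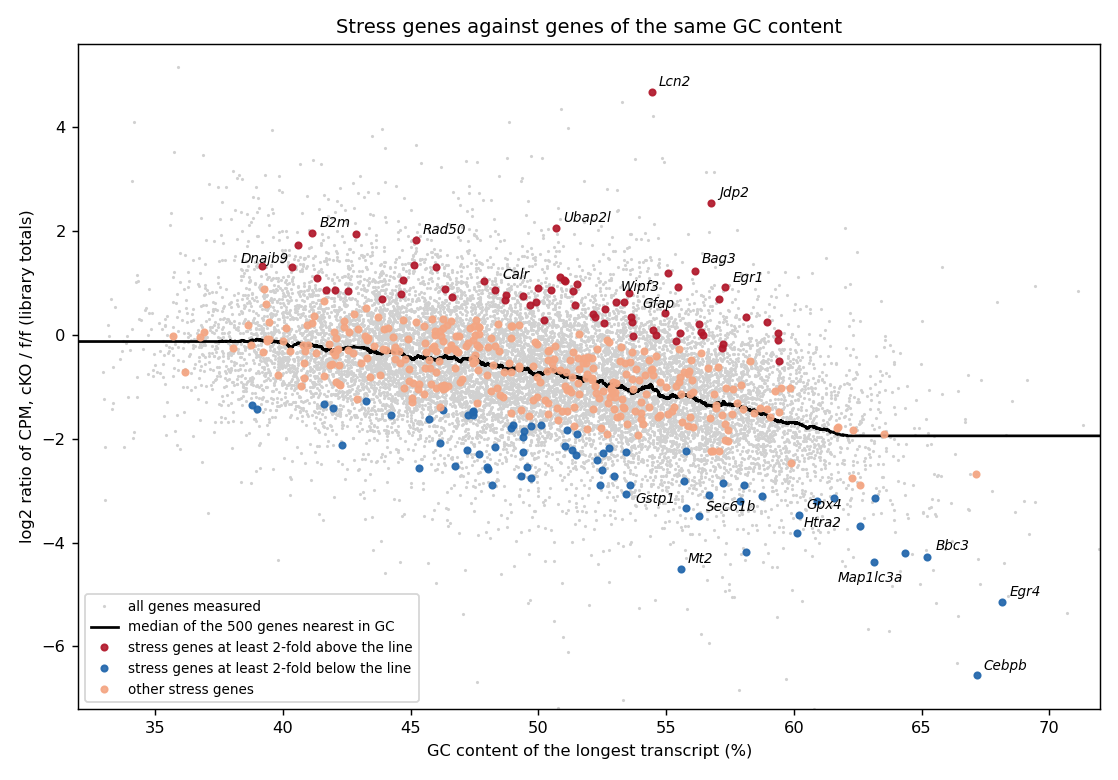
Log2 ratio of CPM, cKO against f/f on library totals (vertical axis), against the GC content of the longest transcript (horizontal axis). Grey dots are all measured genes, the black line is the median of the 500 genes nearest in GC, and the 460 stress genes are red where at least 2-fold above the line, blue where at least 2-fold below it and orange between. Lcn2 and Jdp2 lie highest above the line and Cebpb, Mt2 and Egr4 lowest below it.

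Cytosolic heat shock genes encode chaperones that refold or hold proteins. Of 35 genes 8 were 2-fold above their GC peers and 2 below, with a GC-relative median of 0.35 and a median 0.51 above that of all genes on library totals. Hsp90ab1, a major cytosolic chaperone, went from 1653 to 3405 CPM against 1571 to 1651 CPM in the other 4 libraries. Its cochaperone Stip1 went from 122 to 242 CPM and Dnajb6, which keeps polyglutamine proteins soluble, from 119 to 260. Bag3, which routes damaged proteins to autophagy, went from 8.14 to 19.2 CPM, and Hspa2 from 53.1 to 92.5. In these 5 genes the cKO library was above all others.

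The inducible Hsp70 genes did not follow that pattern in their levels. Hspa1a went from 125 to 146 counts and Hspa1b from 211 to 263, and they stood 1.79 and 1.76 above their GC peers. In CPM the cKO level of Hspa1a lay inside the range of the other 4 libraries, and that of Hspa1b (7.57) lay below their 9.64 to 14.8. These genes are near-identical copies, so unique reads sample only part of each. Hspb6 went from 5.58 to 7.51 CPM. Below their peers were Hspb8, a small heat shock protein that works with Bag3, at 17.6 and 2.65 CPM, and Ptges3, a cochaperone of Hsp90, at 97.7 and 40.3. Hspa8 and Hsp90aa1, the other abundant chaperones, stood at 1015 and 1063 CPM and at 1024 and 1292 CPM. Hsf1, the regulator, stood at 29.1 and 17.2 CPM, a GC-relative ratio of 0.29.

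The heat shock list was also read at its promoters, because Hsf1 binds a short element made of inverted GAA units. The motif searched was GAANNTTC, the same on both strands, in the window from 250 bases before to 50 after each RefSeq start (GRCm38.p6). It was found in 7.86% of all 32851 promoters and for 9.04% of genes. Of the 29 heat shock genes with an entry 11 held it, namely 5 of the 7 above their GC peers, 1 of the 2 below and 5 of the other 20. Stretches before the start site of members above their peers are shown with the motif in capitals, because the list was read at this element.

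Dnajb6 (chr5:29735828-29735883, plus strand): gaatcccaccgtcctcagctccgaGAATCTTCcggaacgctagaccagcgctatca

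Hspb6 (chr7:30553157-30553212, plus strand): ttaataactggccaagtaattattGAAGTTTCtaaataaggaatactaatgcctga

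Hspa1a (chr17:34972229-34972284, minus strand): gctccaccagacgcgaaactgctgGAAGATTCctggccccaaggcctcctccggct

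The stretch of Hspa1b is the same as that of Hspa1a over all 56 bases, so the count above holds this stretch for both genes. In Bag3 and Hspb8, the latter below its peers, the motif lay after the start site. A match is a description of the letters and not a site.

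Chaperones of the endoplasmic reticulum had a GC-relative median of 0.02. Of 31 genes 3 were 2-fold above and 5 below, beside 14.9% and 13.6% of all genes. Dnajb9 went from 43.1 to 143 CPM, Calr (calreticulin) from 350 to 654 and Hsp90b1 (Grp94) from 216 to 392, each above the other 4 libraries. Hspa5, the chaperone that senses misfolding, stood at 203 and 182 CPM and Xbp1, a regulator of the response, at 63.1 and 27.5. Below their peers were Sec61b of the translocation pore (21.6 to 1.90 CPM), Derl1 (61.2 to 9.35) and Sdf2l1 (8.40 to 0.978), with Selenok and Selenos at -1.16 and -1.08. Genes of this compartment thus lay on both sides of their peers. The element of this response, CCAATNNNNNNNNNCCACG on either strand, was in 0.119% of all promoters and found for 0.137% of genes, and for 9 of the 25 list genes with an entry. Those included Calr and Hsp90b1 above their peers, none of the 4 genes below, and 7 of the other 18, such as Hspa5. The promoters of Calr and Hsp90b1 are shown with the element in capitals, in reverse orientation in Calr.

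Calr (chr8:84847051-84847117, minus strand): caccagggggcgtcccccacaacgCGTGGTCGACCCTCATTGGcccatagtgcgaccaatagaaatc

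Hsp90b1 (chr10:86705614-86705680, minus strand): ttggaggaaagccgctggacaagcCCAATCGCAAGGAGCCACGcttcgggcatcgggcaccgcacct

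Targets of the integrated stress response were split evenly, with 8 of 41 genes above their GC peers and 8 below. The shares over all genes were 14.9% and 13.6%. Jdp2, a repressor related to the AP-1 family (chromosome 12), went from 859 to 4902 counts, 24.2 to 141 CPM, with 26.0 to 33.4 CPM in the other 4 libraries. Its GC-relative ratio of 3.91 was the highest of the list. The seryl-, isoleucyl- and cysteinyl-tRNA synthetase genes Sars, Iars and Cars had GC-relative ratios of 1.60, 1.46 and 1.09, and Sars went from 145 to 226 CPM. The amino acid transporter Slc7a5, the secreted hormone Stc2, the chromatin protein Nupr1 and the transcription factor Atf3 were 1.48, 1.53, 1.40 and 1.23 above their peers. Atf3 was low throughout, with 25 and 31 counts.

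Serine synthesis went the other way. Phgdh and Psph, the first and last enzymes of that pathway, went from 49.8 to 6.85 and from 18.0 to 3.08 CPM. Ddit4, an inhibitor of mTOR signalling that several stresses induce, went from 99.8 to 10.8 CPM, and the other 4 libraries held 43.5 to 72.1. Cebpb had the lowest ratio, -4.61 relative to its GC peers. Also below were Eif4ebp1, Slc7a3, Pck2 and Cth, from -2.29 to -1.21. Atf4 and Ddit3, the regulators, stood at 72.5 and 38.5 CPM and at 14.8 and 11.7 CPM, with GC-relative ratios of 0.29 and 0.11. The element TGATGNAA, searched on both strands because Atf4 and C/EBP proteins bind such letters, was in 3.97% of all promoters and found for 4.51% of genes. Of the 33 list genes with an entry 12 held it, 4 of the 6 above their peers, 1 of the 5 below and 7 of the other 22. The stretch of Jdp2 is shown because Jdp2 had the highest ratio of the list.

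Jdp2 (chr12:85599359-85599414, plus strand): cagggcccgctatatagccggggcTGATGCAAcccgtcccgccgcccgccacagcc

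Antioxidant genes of the Nrf2 programme were lower more often than higher, 8 against 3 of 30 on the GC-relative scale, with a median of -0.42. Gpx4, which removes lipid peroxides, went from 240 to 21.8 CPM, Gstp1, a glutathione transferase, from 97.7 to 9.64, Prdx1 from 124 to 28.6 and Nqo1 from 5.02 to 0.863. Txn1 (thioredoxin), Taldo1, Ftl1 and Gsr were -1.75, -1.81, -1.48 and -1.01 relative to their peers. With exon length matched as well Ftl1 stood at -0.98 and no longer passed 2-fold. Cat (catalase), Txnrd1 and G6pdx were above, with Cat at 47.2 and 80.6 CPM. The regulator Nfe2l2 stood at 17.9 and 17.6 CPM. Its element TGANNNNGC is short and was in 41.3% of all promoters on either strand and found for 45.05% of genes, and for 14 of the 25 list genes with an entry. Metallothioneins and iron genes had a GC-relative median of -0.85 over 13 genes. Mt2 went from 252 to 11.1 CPM against 253 to 425 CPM in the other 4 libraries, whereas Mt1, its neighbour and close homologue, went from 526 to 243 with 383 to 746 elsewhere. Hfe, Ireb2 and Slc40a1 were -1.80, -1.35 and -1.09 relative to their peers, and Cp (ceruloplasmin) was 1.17 above.

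Of 43 autophagy genes 7 were below their peers and 1 above, beside 13.6% and 14.9% of all genes. Map1lc3a and Gabarapl2, which coat the autophagosome membrane, went from 159 to 7.65 and from 168 to 28.3 CPM, and Tfeb, a regulator of lysosomal genes, from 356 to 39 counts. The lysosomal genes Npc2 and Gla and the protease Atg4b were -1.39, -1.01 and -1.19 relative to their peers, and Ctsa was 1.15 above. Mitochondrial chaperones and proteases had Htra2 at 17.5 and 1.24 CPM, Phb2 at 48.8 and 10.2 and Grpel1 at 31.1 and 10.6. Clpx, part of the matrix protease, went from 29.4 to 50.8 CPM, and Lonp1 stood at 73.9 and 74.0, both 2-fold above their peers.

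Of 24 p53 targets 5 were 2-fold below their GC peers and 2 above, beside 13.6% and 14.9% of all genes. Trp53 itself went from 18.2 to 28.1 CPM against 16.9 to 18.4 elsewhere, and Xpc, of nucleotide excision repair, was 1.16 above its peers. Bbc3 (Puma), a killer protein of the Bcl2 family, went from 9.75 to 0.489 CPM, Phlda3 from 20.9 to 1.61, Perp from 9.44 to 1.61 and Btg2 from 47.3 to 6.96, and Trp53inp1 was -1.25 relative to its peers. Cdkn1a (p21), the best known target, stood at 9.22 and 5.75 CPM, a GC-relative ratio of 0.30. With so few genes, nothing is read from these counts about p53 and its targets. Among 27 arrest and DNA damage genes 3 were 2-fold above their peers and none 2-fold below, beside 14.9% and 13.6% of all genes. Some had a negative GC-relative ratio, such as Gadd45b, a growth arrest gene, from 15.5 to 3.28 CPM. Rad50, Mdc1 and Chek2, which detect and signal double-strand breaks, went from 563 to 1967, 819 to 1670 and 71 to 128 counts. Other damage genes of the list were under 2-fold. Mre11a, Nbn, Atm and Trp53bp1 stood at 0.19, 0.09, -0.05 and 0.33 relative to their GC peers, and Brca1 at -0.95.

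Of 32 apoptosis regulators 4 were 2-fold above their GC peers and 6 below, Bbc3 among the latter, beside 14.9% and 13.6% of all genes. Endog and Casp9, which act after mitochondrial permeabilisation, went from 5.52 to 0.288 and from 22.5 to 2.68 CPM, and Bcl2l11 (Bim) from 7.69 to 1.27. Traf2 was -1.06 relative to its peers. Bak1, which opens the mitochondrial membrane, went from 7.92 to 12.7 CPM, Ripk1 from 3.58 to 9.12, Mcl1, a protective member, from 88.0 to 140 and Casp8 from 2.90 to 4.80. Members lay on both sides of the line here, as genes did over the whole library.

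Hypoxia-induced genes had 6 of 27 below their GC peers and 4 above, beside 13.6% and 14.9% of all genes. Ldha, the lactate dehydrogenase of glycolytic cells, went from 233 to 46.9 CPM, Pgk1 from 222 to 65.6, Bnip3 from 87.1 to 34.6 and the glucose transporter Slc2a3 from 149 to 53.3. Higd1a was -1.10 relative to its peers, and Ddit4, given above, completed the 6. With exon length matched as well, Ldha and Ddit4 stayed past 2-fold. Pgk1, Bnip3, Slc2a3 and Higd1a then stood at -0.88, -0.94, -0.97 and -0.90 and no longer passed it. Hif1a, the regulator, went from 74.5 to 159 CPM with 73.7 to 92.2 elsewhere, Egln3, which marks it for removal, from 4.65 to 8.40, and Hk1 and Pfkfb3 stood 1.35 and 1.01 above their peers. Of these, Pfkfb3 stood at 0.89 with exon length matched as well. Glucocorticoid-induced genes had 5 of 27 above and 3 below, beside 14.9% and 13.6% of all genes. Wipf3, an actin regulator, went from 408 to 933 CPM against 421 to 481 elsewhere, and Zbtb16, Per1 and Arrdc2 were 1.44, 1.58 and 1.14 above their peers. Tsc22d3 (Gilz), a classical target, went from 79.9 to 17.9 CPM, and Arl4d was -1.67 relative to its peers, beside Ddit4. Lcn2 was the fifth above. Fkbp5 and Sgk1 stood at 62.7 and 45.8 and at 97.8 and 42.8 CPM.

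Immediate early genes, which neuronal firing induces, were split, 7 above and 6 below of 35, beside 14.9% and 13.6% of all genes. Per1, Atf3 and Btg2, given with other lists, are counted here too. Egr1 went from 222 to 419 CPM with 101 to 209 elsewhere, Nr4a2 from 88.9 to 182 with 49.8 to 90.1, and Egr2 from 11.8 to 17.6 with 1.52 to 7.03. Egr4, of the same family, went from 42.1 to 1.18 CPM. Jun and Klf4 stood 1.23 and 1.06 above their peers with nearly equal CPM in both libraries, 98.2 and 101 for Jun and 6.82 in both for Klf4. Ier2, Klf2 and Dusp6 were -1.40, -1.27 and -1.10 relative to their peers, and Ier5 went from 50.4 to 9.46 CPM. Fos went from 39.0 to 11.1 CPM with 10.3 to 28.9 elsewhere, so the f/f library held the highest level of the 6, and against WT the log2 ratio of Fos was 0.11.

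Of the interferon-stimulated genes 3 of 34 were above their GC peers and 5 below, beside 14.9% and 13.6% of all genes. B2m, the light chain of class I molecules, went from 56.5 to 221 CPM with 82.3 to 100 elsewhere, and Oasl2 and Ifi44 were 1.38 and 1.55 above their peers at low levels. Ifi27 went from 28.5 to 3.83 CPM, and Psmb8, Isg15, Tap1 and Xaf1 were -1.72, -1.21, -1.08 and -1.01 relative to their peers. B2m and Tap1, partners in antigen presentation, lay on opposite sides.

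Of the 24 inflammatory mediators 14 passed the count minimum, 3 above their peers and 2 below. Il1b and Il6 had 7 and 3 counts in f/f and 4 and 0 in cKO, and no read of Tnf was counted in either library. Rela, a subunit of NF-kB, stood at 20.1 and 20.5 CPM, and Socs3 and Cd14 went from 2.34 to 0.259 and from 1.72 to 0.345. Rela, Icam1 and Lcn2 were 1.70, 1.08 and 5.66 above their peers. In reactive astrocytes Gfap, the intermediate filament that defines them, went from 298 to 566 CPM, but the other 4 libraries held 334 to 593, so the cKO level lay inside their range. Srgn and Osmr went from 4.00 to 15.4 and from 4.88 to 12.1 CPM, above the other libraries. Aspg had 64 counts in f/f and 3 in cKO (20.9-fold lower, exact 95% interval 6.84 to 104). The list had 5 of 24 genes above, Lcn2 and Cp among them, and 3 below, with Psmb8 and Cd14 as the others.

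RNA-binding proteins of stress granules, the bodies that store untranslated mRNA, had 9 of 34 genes above their GC peers and 1 below, with a GC-relative median of 0.50. Ubap2l went from 109 to 454 CPM with 81.8 to 100 elsewhere, Fmr1, the protein lost in fragile X syndrome, from 79.1 to 198 and Pabpc1, which coats poly(A) tails, from 201 to 417. Larp1, Ybx1, Ybx3, Atxn2, Atxn2l and Eif2ak2 were 1.38, 1.27, 1.10, 1.10, 1.11 and 1.05 above their peers. The exception was G3bp1, the protein that nucleates the granules, which went from 78.9 to 22.8 CPM with 80.2 to 87.1 elsewhere. Counted once for each list, 57 members of all lists and families were below the count minimum and 13 were not among the gene identifiers of the files.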

How the data were processed

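Hippocampal RNA was sequenced in 6 libraries. The deposited values are raw read counts per Ensembl gene. The authors trimmed reads, aligned them to mm10 with TopHat (2.0.9 in the submitters' processing notes, another version in the study's methods) and counted unique reads of mapping quality 20 or more with HTSeq 0.6, without strand. From these, CPM and log2 ratios (0.5 added to each count) were calculated (Python 3.11.15, pandas 2.3.3, scipy 1.17.1, numpy 2.4.6). TMM factors came from edgeR 4.0.16 and size factors from DESeq2 1.42.0, in R 4.3.3. A gene needed 50 counts over the pair. Gene coordinates, exon lengths and GC content (read from the longest transcript) are those of GENCODE M21 (GRCm38), and promoters from RefSeq (GRCm38.p6). Intervals of CPM are Wilson and cover counting error only. The calculation was tested on simulated data.

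Members and lists were chosen with earlier results of these data known. Named genes are the Prrc2 family, the 12 protein-coding genes higher and the 12 lower by the most on 4 scales with at least 200 counts, the most abundant and most extreme members of each list, stress genes 2-fold from their GC peers with the regulators, and examples of low and high GC. Other list members named as illustrations were chosen after their values were seen.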

Additional observations from a re-analysis of the deposited data

How the results depend on the processing

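No paired analysis was possible because each group has 1 library. The number of genes 2-fold higher was 787 on library totals, 2104 with TMM, 1315 without mitochondrial genes, 2197 with DESeq2 size factors, 2212 relative to GC peers, 2241 with exon length matched as well and 2460 without a count minimum. The number 2-fold lower was 5836 on library totals, 2912 with TMM, 2773 with DESeq2 size factors, 2009 relative to GC peers, 1872 with exon length matched as well, 10064 without a count minimum and 1678 on all 4 scales at once, an alternative chosen after seeing the data. The read test of the study, at a fold of 1.2 and a false discovery rate of 0.001 and so not a count of 2-fold genes, called 2025 higher and 9247 lower. It takes counting as the only error and compares these libraries, not the genotypes. The log2 ratio of Prrc2a was -1.24 on library totals, -0.60 with TMM, -0.92 without mitochondrial genes, -0.56 with DESeq2 size factors, -1.08 against the second f/f library, -0.93 against WT, 0.52 relative to GC peers and -0.00212 with exon length matched as well. The difference between GC deciles was -1.54, and -1.20 and -1.04 with those other controls. The number of lists whose median departed by at least 0.5 from all genes was 36, and 21 with GC content and exon length matched. The median of small nucleolar RNAs, relative to all genes, changed sign to -1.004 with at least 10 counts, -0.68 with at least 200 counts and -0.81 without a minimum. Among the 205 named genes past 2-fold on library totals, besides Prrc2a and Olig2, the log2 ratio changed sign for Fos against WT (0.11). It also changed sign for Igfbp6 relative to GC peers (0.080) and with exon length matched as well (0.32). For Mt1 and Tubb3 it changed sign with both matched (0.10 and 0.043). Of the 89 named genes under 2-fold, Sparc not counted, 34 changed sign under at least 1 alternative. The cause of these changes was not tested, beyond the number of genes that each count minimum admits. Of 460 stress genes 134 were 2-fold from their GC peers, and 121 to 137 under alternatives chosen after seeing the data.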
